A study of Mus musculus with 6 samples.

Results

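The GIMAP genes (GTPases of immunity-associated proteins) were followed by total RNA sequencing in 6 samples of mouse CD4 T cells. The family was taken as the 8 genes Gimap1, Gimap3, Gimap4, Gimap5, Gimap6, Gimap7, Gimap8 and Gimap9 by their symbols in the deposited table, as the summed FPKM of 14 transcripts, out of 23962 genes. All 8 were measured in every library. FPKM is the number of sequenced fragments per kilobase of transcript, scaled for depth, so levels can be set side by side between genes. The libraries came from C57BL/6 mice, either wild type (WT) or YAP cKO, which carry a floxed YAP allele and Cre under the CD4 promoter. The CD4 promoter is active in the thymus before the helper and cytotoxic lineages part, so the deletion is not limited to regulatory cells. Naive CD4 T cells (CD62L+, CD25-) and natural regulatory T cells (nTregs, CD25 high, CD62L+/-) came from lymph nodes and spleens by flow sorting. Other nTregs were kept on plates coated with anti-CD3 (2 µg/ml) with soluble anti-CD28 (2 µg/ml) and 100 U/ml of IL-2, for 24 h by the treatment text and 48 h by the extraction text. Each of the 6 groups (WT and cKO of naive cells, fresh nTregs and stimulated nTregs) is 1 library, and the number of mice behind a library is not stated.

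GIMAP proteins are GTP-binding proteins of lymphocytes and other blood cells, most of them held on intracellular membranes. Their genes lie side by side in 1 cluster, and mouse mutants of several members lose peripheral T cells. Gimap5, a protein of lysosomal membranes, and Gimap1 are needed for the survival of mature lymphocytes. Gimap4 has been tied to the pace of lymphocyte death, Gimap6 binds Gabarapl2, a protein of the autophagy machinery, and Gimap7 is a GTPase that works as a dimer. Gimap3 is a close relative of Gimap5, and Gimap8 is the longest member, with several GTP-binding domains.

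In RefSeq coordinates (GRCm38, the assembly that mm10 names) the cluster spans chromosome 6 from 48647186 to 48770851, 124 kb. In order along the chromosome the genes are Gimap8 (48647186 to 48660875), Gimap9 (48676121 to 48679116), Gimap4 (48684578 to 48692062), Gimap6 (48701583 to 48708244), Gimap7 (48718621 to 48724636), Gimap1 (48739047 to 48743795), Gimap5 (48746197 to 48754200) and Gimap3 (48764464 to 48770851). Gimap6 and Gimap3 lie on the minus strand and the others on the plus strand. The promoter windows of 4 members are shown because these members gave the deepest and the shallowest falls on stimulation. Gimap6 and Gimap7 fell most, Gimap4 and Gimap9 least. Each RefSeq window holds 250 bases before and 50 bases after the start site, 5′ to 3′ on the strand of the gene. The positions are chr6:48708195-48708494 (minus strand) for Gimap6, chr6:48718371-48718670 for Gimap7, chr6:48684328-48684627 for Gimap4 and chr6:48675885-48676184 for Gimap9 (plus strand). Capitals mark matches on either strand to the motifs searched, GGAATG (TEAD), TGTGGT (RUNX), GTAAACA (FOXO), CTTTGA (TCF and LEF) and TGANTCA (AP-1), none of which overlapped in these windows.
Gimap6: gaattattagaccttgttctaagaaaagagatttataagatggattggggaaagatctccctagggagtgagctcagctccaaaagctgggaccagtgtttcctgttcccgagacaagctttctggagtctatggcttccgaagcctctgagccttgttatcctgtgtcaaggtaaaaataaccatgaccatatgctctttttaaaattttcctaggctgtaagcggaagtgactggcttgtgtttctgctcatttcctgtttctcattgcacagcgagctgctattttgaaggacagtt
Gimap7: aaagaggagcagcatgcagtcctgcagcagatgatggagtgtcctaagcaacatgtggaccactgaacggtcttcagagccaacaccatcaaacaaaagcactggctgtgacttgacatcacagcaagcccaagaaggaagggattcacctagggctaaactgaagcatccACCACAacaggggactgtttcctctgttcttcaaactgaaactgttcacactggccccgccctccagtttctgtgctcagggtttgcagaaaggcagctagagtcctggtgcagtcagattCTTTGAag
Gimap4: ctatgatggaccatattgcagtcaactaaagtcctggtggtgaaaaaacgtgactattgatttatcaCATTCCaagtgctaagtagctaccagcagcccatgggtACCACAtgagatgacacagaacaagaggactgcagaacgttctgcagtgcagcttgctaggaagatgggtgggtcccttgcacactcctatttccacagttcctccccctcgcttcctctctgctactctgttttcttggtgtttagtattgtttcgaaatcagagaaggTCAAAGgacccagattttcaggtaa
Gimap9: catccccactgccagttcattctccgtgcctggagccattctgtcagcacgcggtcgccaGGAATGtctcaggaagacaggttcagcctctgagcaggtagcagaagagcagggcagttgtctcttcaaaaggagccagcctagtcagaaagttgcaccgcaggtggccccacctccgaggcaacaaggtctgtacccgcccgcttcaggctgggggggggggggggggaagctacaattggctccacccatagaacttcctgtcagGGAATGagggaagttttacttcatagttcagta

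The Gimap6 window held none of the 5 motifs. The Gimap7 window held a RUNX match that begins at -79 and a TCF and LEF match that begins at 43, the start site being base 1. The TEAD motif, the site of the factors through which YAP acts, was found at -190 and 18 in Gimap9, at -183 in Gimap4 and at -106 in Gimap1. Over all windows of the family (9, since Gimap8 has a pair that overlap) 3 held the TEAD motif, against 14.7% of 32851 mouse promoter windows. The RUNX motif was in 3 of the 9 (16.8% of all windows), the TCF and LEF motif in 2 (16.0%), the FOXO motif in 1, that of Gimap3 (3.65%), and the AP-1 motif in 0 (7.81%). A match describes the letters of the window and shows no binding.

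The labelled populations carried their defining RNAs. Foxp3, which sets Treg identity, was at most 3.30 FPKM in naive cells and at least 45.9 in the 4 nTreg libraries. Yap1 was listed at 0 in the naive and fresh libraries and was 0.169 (WT) and 0.235 (cKO) in stimulated nTregs, so the genotype labels rest on the column names alone. The columns of 1 genotype carry the letters YKP and were read as cKO by elimination. Xist, expressed from an inactive X chromosome, was 12.5, 30.0 and 21.1 FPKM in WT naive, fresh and stimulated cells and 8.76, 3.21 and 3.43 in cKO. Ddx3y, a Y-linked gene, was 72.9, 59.8 and 33.2 in WT and 64.4, 79.0 and 45.5 in cKO, so male cells were in every library. It was higher in WT in the naive pair and higher in cKO in both nTreg pairs. The sexes of the mice are not stated, and a difference in sex makeup cannot be told apart from genotype in the values below. Markers of B cells (7 genes, summed level 2.61 to 16.1 FPKM per library, Pax5 listed at 0 in 5 of 6 libraries), myeloid cells (8 genes, 1.55 to 5.64) and erythroid cells (5 genes, summed level at most 1.08) were low beside the family sum of 957 to 2405. Endothelial cells also express GIMAP genes, and their markers Cdh5, Kdr and Tek did not exceed 0.253 FPKM in any library, while Pecam1, which T cells express too, was 33.3 to 79.1. NK cell markers (6 genes) summed to 32.8 and 20.9 FPKM in WT and cKO naive cells and to 4.07 to 6.90 in the nTreg libraries. In naive cells Gimap7 was 43.1 and 27.4 and Gimap5 24.7 and 24.6, so the NK sum was not low beside these members. Estimated from the steps between the lowest values, 1 fragment on 1 kb of transcript was worth 0.106 to 0.138 FPKM. Members therefore stood on about 161 fragments (Gimap5, WT stimulated nTreg) to 12331 (Gimap6, cKO naive).

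The family was abundant in unstimulated T cells. WT and cKO naive cells held 2405 and 2247 FPKM of the 8 genes together, fresh nTregs held 2278 and 2192, and the stimulated pair held 1052 and 957. Of each library's FPKM without short RNAs, these sums made up 0.314% and 0.290%, 0.345% and 0.322%, and 0.220% and 0.178%. By this share the family fell less on stimulation than by FPKM. In naive cells the order ran Gimap6, Gimap4, Gimap3, Gimap8, Gimap9, Gimap1, Gimap7 and Gimap5, and no neighbouring pair overlapped between the WT and cKO libraries. Gimap6 alone held 44.4% and 42.5% of the family sum there, and was the gene of rank 113 and 120 by FPKM among all 23962. Fresh nTregs kept that order except that Gimap7 (114 and 93.8) and Gimap1 (105 and 95.2) overlapped. In stimulated nTregs Gimap4 came first (389 and 340), Gimap3 next (194 and 192) and Gimap6 after it (162 and 140). Gimap6 then held 15.4% and 14.6% of the sum, and Gimap4 held 37.0% and 35.5%.

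**Figure D1:**
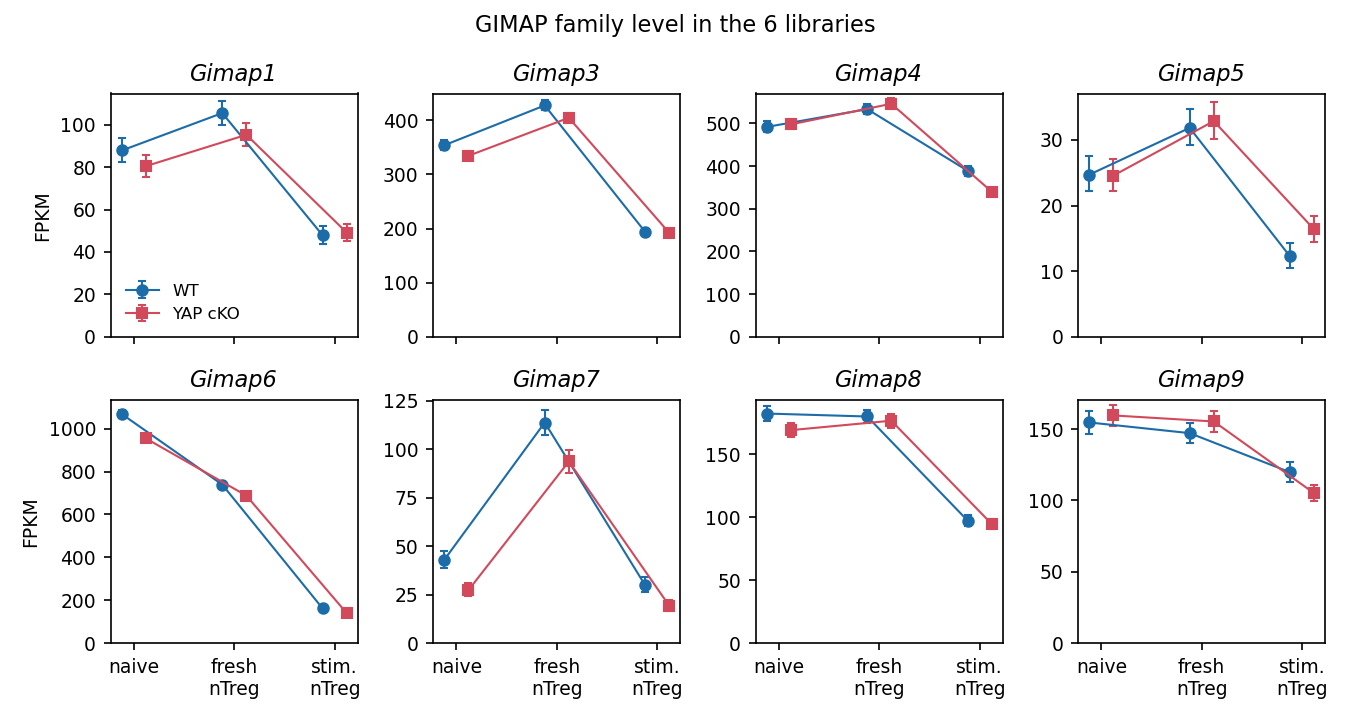
FPKM (y axes, from 0, scaled for each gene) of the 8 members by population, with circles for WT and squares for YAP cKO and 1 library per point. Bars are 95% Poisson intervals on estimated fragments and cover counting error only. Gimap6 stood lower at each step from 1068 to 162 in WT, Gimap7 peaked in fresh nTregs at 114, and every member was lowest in stimulated nTregs.

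The whole family stood lower in stimulated than in fresh nTregs. No group of nTregs was kept on plates unstimulated, so culture, time and IL-2 cannot be told apart from anti-CD3 and anti-CD28. A fall or rise on stimulation means this contrast throughout. All 8 members fell from fresh to stimulated cells, in WT and in cKO, with a median difference of -1.07 in log2(FPKM + 1) against -0.05 over all 11214 genes tested. The test was limma on an additive model of population and genotype, called at a Benjamini-Hochberg adjusted p under 0.05. Across all genes tested 49.9% were called in this contrast, 27.3% lower and 22.6% higher. With 1 library per group the error of this model is the departure of the WT and cKO libraries from parallel steps, on 2 residual and 4.03 prior degrees of freedom. The p-values therefore speak of these libraries and not of the spread between mice. In sorted bulk cells, fewer cells that express a gene and less of its RNA per cell cannot be told apart. FPKM is a share of each library, so more total RNA per cell cannot be told apart from either. The 7 B cell markers moved in the same direction as the family, from a summed 16.1 and 13.1 FPKM in fresh to 7.36 and 4.68 in stimulated nTregs (Cd79b from 12.0 and 11.2 to 4.58 and 2.63). Their part in the fall was not tested. Of all 23962 genes, 4108 (WT) and 4861 (cKO) were listed at 0 in stimulated nTregs. In fresh nTregs these numbers were 9289 and 9086, and in naive cells 10125 and 9898. Whether this difference between the libraries bears on the fall was not tested.

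Gimap6, the partner of Gabarapl2, went from 739 (WT) and 688 (cKO) FPKM in fresh nTregs to 162 and 140 after stimulation. Both stimulated libraries lay far below both fresh ones. The gene fell by 2.24 in log2 (SE 0.08, adjusted p = 4.78e-05), the 94th lowest value of all genes tested. Gimap7 went from 114 and 93.8 to 30.0 and 19.4, again without overlap. It fell by 2.05 (SE 0.11, adjusted p = 0.000119). Gimap5 stood at 31.8 and 32.9 before and at 12.3 and 16.4 after stimulation, and fell by 1.14 (SE 0.12, adjusted p = 0.000874). Its relative Gimap3 stood at 427 and 405 before and at 194 and 192 after, and fell by 1.10 (SE 0.08). Gimap1, needed by mature lymphocytes, stood at 105 and 95.2 before and at 47.9 and 49.1 after, and fell by 1.03 (SE 0.08). On the model's scale, with the authors' scaling, these 3 falls were 2.04-fold to 2.20-fold.

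Gimap8, the longest member, fell by 0.89 (SE 0.07), from 180 and 176 to 97.2 and 94.5. The shallowest falls were those of Gimap4, by 0.57 (SE 0.09, adjusted p = 0.00432), from 533 and 546 to 389 and 340, and of Gimap9, by 0.43 (SE 0.09, adjusted p = 0.0107), from 147 and 155 to 120 and 105. The groups did not overlap for either gene. The unadjusted 95% intervals of Gimap6 (-2.44 to -2.04) and Gimap9 (-0.65 to -0.20) lay apart, and the difference between the genes was not itself tested. The call of Gimap4 was lost without the cKO fresh nTreg library (adjusted p = 0.0769), and that of Gimap9 without either fresh nTreg library (adjusted p = 0.0537 without WT and 0.130 without cKO). Scaling the libraries to an equal FPKM sum without short RNAs, which moved the median of all genes to 0.32, took Gimap4 to -0.17 and Gimap9 to -0.03, both no longer called. The same scaling gave -0.64 for Gimap1, -0.70 for Gimap3, -0.76 for Gimap5 and -0.49 for Gimap8. It gave -1.84 for Gimap6 and -1.67 for Gimap7, and all of these stayed called. With Rmrp and Rpph1 also left out of the sum, Gimap9 stood at -0.24 (adjusted p = 0.109) and Gimap4 was called.

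**Figure D2:**
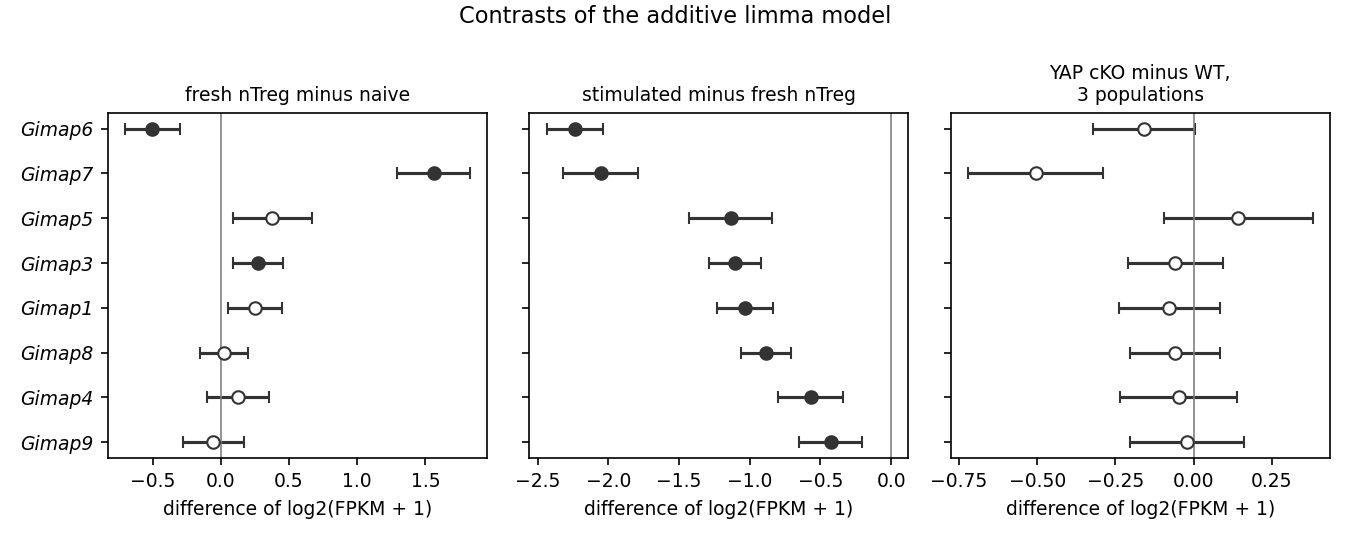
Differences of log2(FPKM + 1) on the x axes, with unadjusted 95% intervals from limma, for the 8 members in 3 contrasts of the additive model. Filled points had an adjusted p under 0.05. All 8 are filled and below 0 in the stimulated minus fresh panel, while none is filled in the genotype panel.

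Between naive cells and fresh nTregs the members moved apart instead. Gimap7 was 43.1 and 27.4 FPKM in WT and cKO naive cells and 114 and 93.8 in fresh nTregs. Each nTreg library exceeded both naive libraries, and the gene rose by 1.56 in log2 (SE 0.11, adjusted p = 0.000308). Gimap6 went the other way, from 1068 and 954 to 739 and 688, a fall of 0.50 (SE 0.08, adjusted p = 0.00690). Gimap3 rose by 0.27 (SE 0.08, adjusted p = 0.0396), from 354 and 334 to 427 and 405. The calls thus numbered 2 higher and 1 lower of 8, against 31.3% of all genes called, 16.5% higher and 14.8% lower. The Gimap6 and Gimap3 calls were lost on leaving out any 1 of the naive or fresh libraries (adjusted p 0.0618 to 0.131 for Gimap6 and 0.204 to 0.328 for Gimap3), while Gimap7 was called in all 17 alternatives. Gimap3 was also not called with no filter on low values, with no intensity trend and with only the top transcript. Markers of B cells, which express GIMAP genes too, summed to 2.95 and 2.61 FPKM in naive cells and 16.1 and 13.1 in fresh nTregs, the direction of Gimap7. Of these sums in fresh nTregs, Cd79b gave 12.0 and 11.2. The 6 NK cell markers summed to 32.8 and 20.9 in naive cells and 6.90 and 5.70 in fresh nTregs, the direction of Gimap6. Klrd1 (13.1 and 8.86) and Prf1 (11.6 and 9.49) gave most of the naive sums. Klrb1c, of the same list, rose from 0.211 and 0.134 to 1.48 and 1.07. The 2 CD8 T cell markers summed to 8.19 and 8.90 in naive cells and 5.50 and 5.69 in fresh nTregs, also the direction of Gimap6. Cd8b1 gave almost all of these sums. Cd8a stood at 0.177 and 0 in naive cells and 0.142 and 0.113 in fresh nTregs, and so rose in cKO. The part of these lists in the Gimap7 and Gimap6 values was not tested.

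The other 5 members were not called in that contrast. Gimap5 stood at 24.7 and 24.6 in naive cells and 31.8 and 32.9 in fresh nTregs (0.38, adjusted p = 0.0574). Gimap1 stood at 87.8 and 80.4 in naive cells against 105 and 95.2 (0.25, adjusted p = 0.0621). In both genes the nTreg libraries lay above the naive ones. With median-of-ratios scaling both passed, at adjusted p of 0.0332 for Gimap5 and 0.0286 for Gimap1. Gimap4 (0.13), Gimap8 (0.02) and Gimap9 (-0.05) lay nearest to 0, with adjusted p from 0.351 to 0.843 and intervals that reach no further than 0.35 in either direction.

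Set directly against naive cells, stimulated nTregs had lower FPKM of all 8 members, with a median difference of -0.77. Of all genes 63.1% were called in this contrast (33.2% lower and 29.9% higher). The 3 contrasts between populations share libraries and are not independent. Gimap6 fell by 2.74 in log2 (SE 0.08, adjusted p = 7.60e-06). For Gimap7 the rise into fresh nTregs and the fall on stimulation left 30.0 and 19.4 FPKM, against 43.1 and 27.4 in naive cells, a fall of 0.49 (SE 0.11, adjusted p = 0.00844). The WT stimulated library of Gimap7 lay within the range of the naive pair. At an equal FPKM sum without short RNAs the median of all genes moved to 0.50, and Gimap4, Gimap7 and Gimap9 turned to 0.16, 0.09 and 0.11, none of them called. Relative to the median of all genes, they stayed below 0 in every alternative, at -0.57 to -0.26, -0.62 to -0.35 and -0.61 to -0.29. Without the WT naive library the call of Gimap7 was lost (adjusted p = 0.0637), as it was without genotype in the model (0.152), and without the cKO naive library that of Gimap4 (0.0769).

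In the genotype comparison Gimap7 had the lowest estimate of the family. It was lower in cKO than in WT in 3 of 3 populations, with WT and cKO at 43.1 and 27.4 FPKM when naive, at 114 and 93.8 in the fresh pair and at 30.0 and 19.4 in the stimulated pair. The WT to cKO ratio was 1.57 for the naive pair (1.34 to 1.85 from counting error alone), 1.21 for the fresh pair (1.11 to 1.32) and 1.55 for the stimulated pair (1.28 to 1.87). A difference of at least 1.5-fold toward lower cKO, on the log2(FPKM + 1) scale, was found in 1.85%, 1.45% and 2.92% of genes in the same order. Toward higher cKO the shares were 2.19%, 2.41% and 5.16%, and in either direction 4.04%, 3.86% and 8.07%. Gimap7 was the member past it in naive and stimulated cells, 1 of 8 in each, and 0 of 8 passed it in fresh nTregs. At 2-fold no member passed, against 1.19%, 1.03% and 1.88% of genes, and at 1.2-fold the shares of all genes were 17.9%, 19.2% and 34.9%. Over the 3 populations the limma estimate was -0.51 (SE 0.09), the 103rd lowest of 11214 genes. Its unadjusted p was 0.00123, but it missed the threshold after adjustment (adjusted p = 0.123, and 0.0845 to 0.534 over 16 alternatives).

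In the same naive libraries the 6 NK cell markers summed to 32.8 FPKM in WT and 20.9 in cKO, a difference of the same direction as that of Gimap7. In fresh nTregs these sums were 6.90 and 5.70, and in stimulated nTregs they were 4.07 and 5.50, the opposite direction. By sum, the 2 CD8 T cell markers went the other way in the naive pair, at 8.19 in WT and 8.90 in cKO. Cd8b1 gave almost all of both sums, while Cd8a was 0.177 in WT and 0 in cKO, the direction of Gimap7. The part of either list in the Gimap7 values was not tested.

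None of the 8 members was called for genotype by limma, where 0.375% of all genes were (0.259% higher and 0.116% lower in cKO), and 1 of them, Gimap7, had an unadjusted p under 0.05. Of all 11214 genes 1345 had one, so 1 of 8 is near the background. Gimap6 was lower in cKO in all 3 populations by smaller amounts, with ratios of WT to cKO of 1.12, 1.07 and 1.16 (estimate -0.16, SE 0.07, adjusted p = 0.426). Gimap3 (-0.06), Gimap8 (-0.06), Gimap1 (-0.08), Gimap4 (-0.05) and Gimap9 (-0.02) had estimates close to 0. Their unadjusted 95% intervals stayed between -0.24 and 0.16. Gimap5 was the member with a positive estimate (0.14, SE 0.10, adjusted p = 0.589), with its largest difference in the stimulated pair, at 12.3 in WT and 16.4 in cKO. Its ratio of cKO to WT was 0.994 when naive and 1.03 when fresh. The populations have 1 library per genotype, so whether the genotype difference changes between populations could not be tested.

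**Figure D3:**
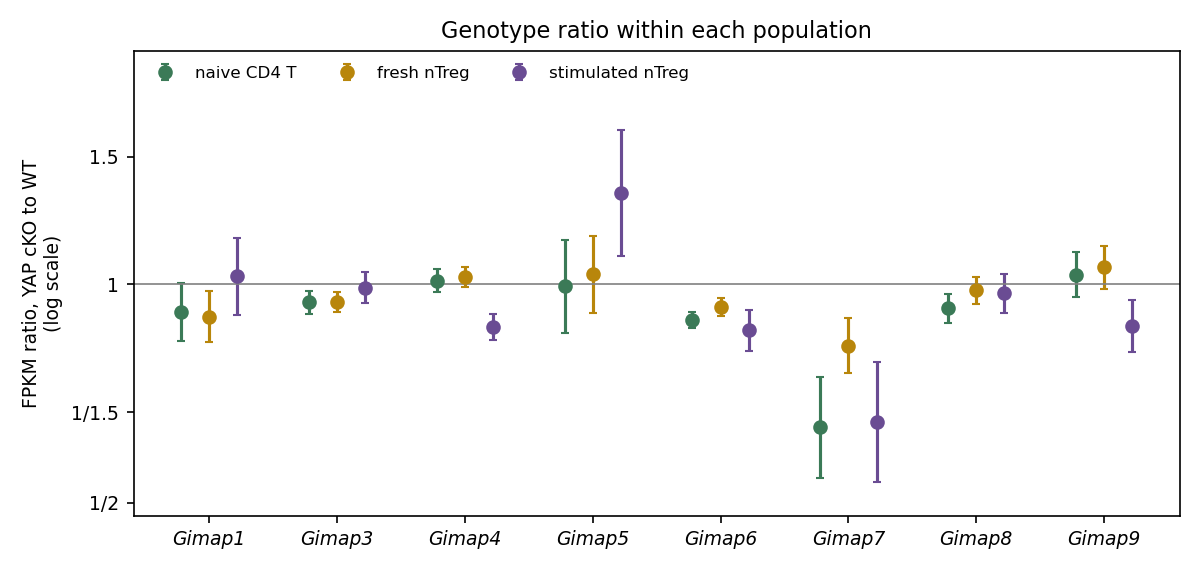
Ratio of FPKM in YAP cKO to WT (y axis, log scale) for each member in the 3 populations, 1 library per genotype, with 95% intervals of estimated fragments that cover counting error only. Gimap7 lies below 1 in all 3 populations (0.636, 0.823 and 0.647), and Gimap5 in stimulated nTregs lies above 1 (1.34).

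The steps from fresh to stimulated nTregs can be set side by side for the genotypes, with no test. The cKO step minus the WT step was -0.33 in log2 for Gimap7, 0.34 for Gimap5 and -0.26 for Gimap9, with the other 5 between -0.23 and 0.18. Over all genes the central 90% ran from -0.46 to 0.55, so no member left that range. In the step from naive to fresh cells the largest of these differences was that of Gimap7 (0.36), again inside the central 90% (-0.44 to 0.43).

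Several members have more than 1 transcript in the table. Of the 5 of Gimap4, the longest held 80.5% to 86.6% of the gene's FPKM in every library. In Gimap8 the shorter transcript led with 75.9% to 86.0%. The longer one stood lower in cKO in naive cells (37.8 and 23.7) and fresh nTregs (43.3 and 28.3) but not in stimulated nTregs (14.9 and 17.3). Transcripts that share most exons are told apart by few fragments, and the split carries more error than the gene's sum. Gimap3 and Gimap5 share 190 stretches of 50 bases in the GENCODE transcripts, 7.52% of those of Gimap3 and 4.53% of those of Gimap5, and Gimap3 was 11.8 to 15.8 times the level of Gimap5. Part of the fragments of this pair can thus not be assigned by sequence. Gimap3 stood on about 5353 fragments in WT naive cells and 2815 in WT stimulated nTregs, Gimap5 on 338 and 161. The part that is small for Gimap3 may thus be large beside the level of Gimap5. How much of the Gimap5 values, and of their fall, comes from Gimap3 was not tested. No other pair of members shared a stretch of that length. The antisense gene Gimap1os covers 32.4% of the stretches of Gimap1 on the opposite strand. The libraries were stranded, and whether the counting used strand is not given in the sources used here. On the same strand, Gm28053 shares 4.78% of the stretches of Gimap1, 2.50% of Gimap5, 1.39% of Gimap7 and 0.316% of Gimap3. Strand cannot tell these apart, and their part in the values was not tested.

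The genes beside the cluster were far lower. Of 45 other annotated features in it or within 300 kb of its ends, 18 were in the table and 8 were tested. AI854703, the nearest on the Gimap8 side, was 0.334 to 1.18 FPKM over the 6 libraries, and Tmem176b, the nearest tested on the Gimap3 side, was 1.16 to 3.50. On stimulation 2 of the 8 neighbours fell, Zfp467 (-1.33, SE 0.14) and Krba1 (-0.77, SE 0.11), both more than 200 kb from the cluster, and none rose. With 27.3% of all genes called lower, this count is near the background. From naive to fresh nTregs 3 of 8 rose, the pseudogene Zfp862-ps (by 1.48), Lrrc61 (by 1.14) and Tmem176b (by 0.72), where 16.5% of all genes were called higher. The 3 nearest on the Gimap8 side, AI854703, Zfp775 and Repin1, were called neither on stimulation nor between naive and fresh cells.

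**Figure D4:**
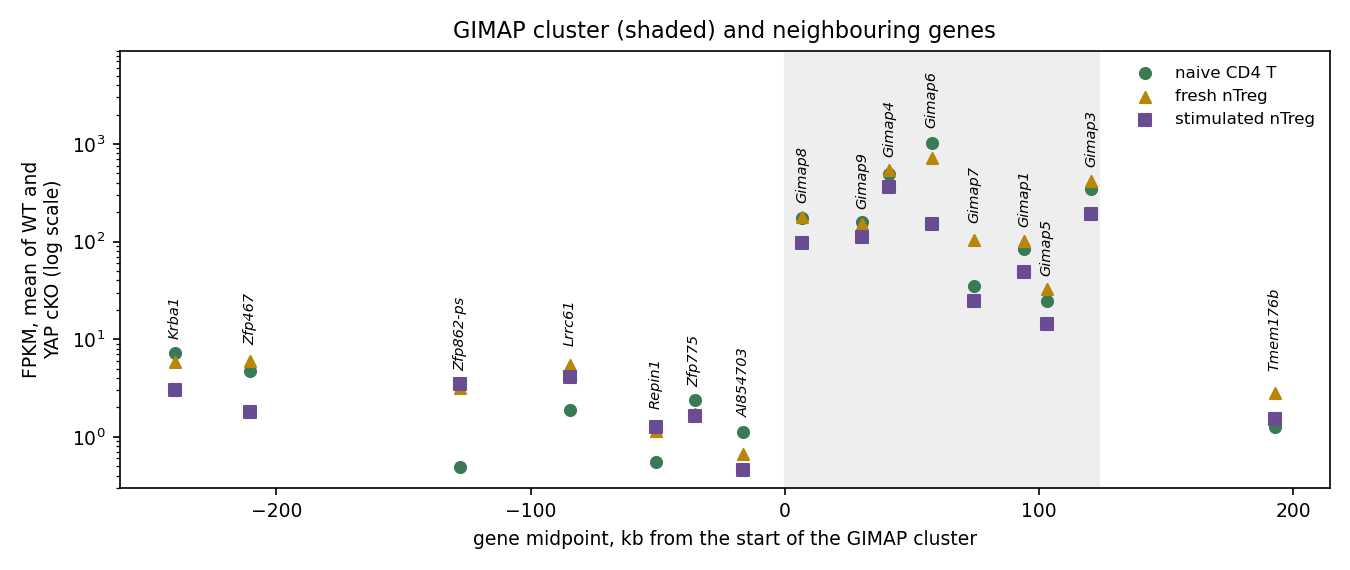
FPKM (y axis, log scale, mean of the WT and cKO library) against the gene's midpoint in kb from the start of the GIMAP cluster, for the members (shaded stretch) and the 8 tested neighbours, with 1 symbol per population. All members lie above 10 FPKM and all neighbours below 10.

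Other genes of survival, autophagy and quiescence were read from the same fit, in which 27.3% of all genes were called lower on stimulation and 22.6% higher. Of 14 tested BCL2-family and survival genes, 7 fell, 1 rose and 6 were not called on stimulation (median -0.40). The falls were led by Bcl2l11, the death-promoting BIM, which fell by 1.39 from 42.3 and 41.6 to 16.5 and 14.4 FPKM, by Pmaip1, which encodes the death-promoting NOXA (-1.26), and by the survival gene Bcl2a1b (-1.14). The survival genes Bcl2l1 (-0.65) and Mcl1 (-0.58), named after their values were seen, fell too, so the falls held genes of both roles. The gene that rose was Bcl2l2, a survival protein, by 0.67. Bcl2 itself was 89.4 and 72.3 in fresh and 111 and 85.3 in stimulated nTregs (0.27, adjusted p = 0.182). Of 19 tested genes of the ATG8 autophagy system, to which the Gimap6 partner belongs, 8 fell and 1 rose on stimulation (median -0.31). Gabarapl2 itself was not called, at 98.3 and 94.4 FPKM in fresh and 76.4 and 88.1 in stimulated nTregs (-0.23, adjusted p = 0.136). The largest fall was that of Map1lc3a (-1.13), and the rise that of Gabarapl1 (0.41). Of 18 naive and quiescent T cell genes, 15 fell and 1 rose (median -1.30), among them Dapl1 (-3.24, listed at 0 in WT stimulated nTregs), Btg2 (-2.19) and the chromatin organiser Satb1 (-1.86), while Foxp1 rose by 0.31. Of 12 activation genes, 9 rose and 3 fell (median 1.06), with Il2ra up by 2.05, Slc7a5 by 1.91 and Myc by 1.85, and Nr4a1 down (-2.13). None of these lists held a gene called for genotype, where 0.375% of all genes were, so a count of 0 is near the background.

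Between naive and fresh cells, in the naive and quiescent list 12 fell and 1 rose (median -0.43), and in the survival list 6 rose and 1 fell (median 0.39), led by Bcl2a1d (3.07) and Pmaip1 (2.97). Of the 19 autophagy genes 2 rose and 3 fell, and of the 12 activation genes 7 rose. Across all genes 16.5% were called higher and 14.8% lower, so the autophagy counts were near or below the background.

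Within the family the members followed one another to different degrees over the 6 libraries. Pearson's r of each member with the mean of the others was 0.996 for Gimap3, 0.989 for Gimap1, 0.980 for Gimap8 and 0.978 for Gimap4. It was 0.927 for Gimap5, 0.914 for Gimap6, 0.908 for Gimap9 and 0.742 for Gimap7. Among 3963 other genes that spanned at least 1 in log2, the 10 most like the family mean had r from 0.995 to 0.999. These were Kctd12, Ttc28, Ifrd1, Fam107b, A930024E05Rik, Leng9, Zfp467, Epsti1, Cd28 and Klf6. Of these, Cd28 encodes the costimulatory receptor engaged in the stimulation (124, 121, 144, 140, 41.2 and 39.2 FPKM in WT and cKO naive, fresh and stimulated cells). These correlations describe 6 libraries that fall into 3 populations and share 1 scaling, so they say nothing of shared control.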

How the data were processed

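Per the labels' protocols, 322 ng of total RNA per library was depleted of ribosomal RNA and amplified with 12 PCR cycles into stranded libraries. Per the submitters' processing notes, reads went through FastQC, TopHat (mm10), Cuffdiff and Cuffnorm, versions not given. The deposited values are FPKM per RefSeq transcript, which the authors scaled over the 6 libraries with Cuffnorm, so no count model was used. Of 32860 rows, 165 transcripts listed more than once had identical values and were counted once. FPKM was summed per gene. RefSeq accessions (GRCm38.p6) named 32097 of 32547 transcripts, deposited symbols 401 more. A Gimap8 transcript without a deposited symbol was left out.

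The 11214 genes that reached 1 FPKM in 2 or more libraries were fitted in limma 3.58.1 (R 4.3.3) on log2(FPKM + 1) with population and genotype, an intensity trend and Benjamini-Hochberg adjustment. The pseudocount of 1 understates folds of low genes. The script was tested on simulated data. Genotype differences within a population (1 library per group) have no test. Their intervals use exact binomial bounds on fragments estimated from the steps of low FPKM values, with transcript length less 150 bases, and cover counting error only.

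All 8 members were named by rule, with neighbours within 300 kb, the 10 genes of most like pattern, and up to 3 genes per list and direction. Members and lists were chosen with earlier results of these data known.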

Additional observations from a re-analysis of the deposited data

How the results depend on the processing

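Depth limits Gimap5 most, at about 161 fragments in WT stimulated nTregs. The fall of Gimap1, Gimap3, Gimap5, Gimap6, Gimap7 and Gimap8 on stimulation was called in all 17 alternatives, 2 of which (equal FPKM sum also without Rmrp and Rpph1, and Gimap8 with its other transcript) were chosen after seeing the data. Leaving out each library gave 6 to 8 members called lower on stimulation. No paired analysis was possible because each group has 1 library and no replicate numbers pair samples. The genotype term of the model already compares populations within a genotype. Without it 8, 3 and 7 members were called on stimulation, between fresh and naive, and between stimulated and naive cells.

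For fresh nTregs against naive cells, 2 members were called higher. This count was 1 with no filter on low values, with no intensity trend and with only the top transcript, and 4 at an equal FPKM sum without short features (also without Rmrp and Rpph1) and with median of ratios. Leaving out libraries gave 1 to 4 higher and 0 to 1 lower.

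For stimulated nTregs against naive cells, members called lower went from 8 to 3 at an equal FPKM sum without short features and to 5 also without Rmrp and Rpph1. Under the former, Gimap4, Gimap7 and Gimap9 reversed, to 0.16, 0.0864 and 0.11. That scaling gave 79.5% of all calls higher on stimulation, against 45.2% in the authors' scaling. In the other population contrasts these shares were 80.4% against 52.8% (fresh against naive) and 82.8% against 47.3% (stimulated against naive).

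Of the members at least 1.5-fold apart between genotypes (1 in naive, 0 in fresh, 1 in stimulated cells), 0 remained past a fold of 2 or with a pseudocount of 5. At a fold of 1.2 there was 1 in fresh nTregs and 2 in stimulated nTregs. No member was called for genotype in any of the 16 alternatives. The cause of these shifts was not tested. The 42 genes called for genotype among all genes became 13 higher and 4 lower with a pseudocount of 5, 3 and 1 with no filter, 9 and 3 with only the top transcript, 12 and 4 without either fresh library, 55 and 20 without the WT naive library, 50 and 20 without the cKO naive library, and 62 and 35 or 63 and 40 without the WT or cKO stimulated library. Over all genes fresh against naive, 1854 higher and 1656 lower became 1370 and 829 with no filter and 915 and 475 without WT fresh nTregs.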
